A study of Mus musculus with 12 samples.

Results

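The granins and the enzymes that mature prohormones form a set of 10 genes, chosen by name as the rows whose Ensembl identifiers carry the symbols Chga, Chgb, Scg2, Scg3, Vgf, Pcsk1, Pcsk2, Scg5, Pcsk1n and Cpe in Gencode vM1. They are 10 of the 37310 genes counted in each of 12 TRAP-Seq and input libraries of mouse ventral hippocampus (vHPC). All 10 had counts in every library, between 15 and 3894 reads, and all 10 passed the expression filter of every comparison.

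Granins are acidic secretory proteins of neurons and endocrine cells that help to form dense-core vesicles and are also cut into peptides. Inside the vesicle, prohormone convertases cut precursors after pairs of basic residues, and carboxypeptidase E then trims those residues from the new ends. Each convertase has a small partner protein that is itself granin-like: 7B2, the product of Scg5, for PC2, and proSAAS, the product of Pcsk1n, for PC1/3. In hippocampal neurons, this route makes neuropeptides and processes other regulated cargo such as neurotrophins.

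TRAP isolates mRNA held on GFP-tagged ribosomes (L10a) from a chosen kind of cell, and the input library holds RNA of the whole tissue punch. Pools of mice, 3 of each genotype, were each split into 1 TRAP and 1 input library, which makes 4 groups of 3 libraries. The pool numbers of the labels, 1 to 3 for WT and 2 to 4 for KO, are kept here. The design asks which transcripts differ between genotypes in vHPC neurons that project to nucleus accumbens (NAc), and which differ between those neurons and the whole tissue.

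All mice, of C57BL/6 strain by the labels, carried the Cre-dependent Rosa26eGFP/L10a allele and received retrograde HSV-Cre in NAc 3 weeks before tissue was taken. The WT mice were littermates without the floxed allele. The KO mice were in addition FosB fl/fl, so Fosb was floxed in all cells but recombined only where Cre arrived. The virus drives Cre from a general promoter, so the tagged cells are those that took it up at their terminals and not a molecular class. By design, a KO input library is therefore tissue in which most cells need not have lost Fosb, though its measured Fosb was lower too (given below). The labels give 3 mice per pool, and nothing ties pools to separate litters, so the p-values measure the spread between pools. The ages of these mice and any further treatment are not given in the sources used here.

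Between 3416030 and 5614089 reads per library fell on genes, and the 10 genes together took 0.171% to 0.240% of them. Fosb, the targeted gene, had values of 45.2, 32.0 and 40.1 CPM (counts scaled to library size with the TMM method) in WT TRAP 1 to 3 and at 29.3, 18.8 and 21.5 CPM in KO TRAP 2 to 4. In input the WT values were 30.2, 22.2 and 24.4 CPM and the KO values 17.04, 16.0 and 14.8 CPM. The KO libraries were thus lower without overlap in both kinds of library, though Fosb was not called (edgeR quasi-likelihood test, adjusted p = 0.337 and 1.00). Its level in KO was 59.0% of WT in TRAP and 62.5% in input. The change in TRAP less that in input was −0.08 ± 0.30 (SE) on the log2 scale (same test of the interaction, unadjusted p = 0.791). These counts cover the whole gene, while the paper states that floxing removes exons 2 and 3. From its read plots, the paper reports Fosb as nearly absent in KO TRAP. Reads by exon were not examined here. WT input 1 stood apart from the other input libraries, with counts on 15678 genes against 17255 to 18090. It was also the shallowest input library, with 3416030 reads on genes against 4271780 to 4636374. Its share of reads on mitochondrial genes was 5.29%, against 6.42% to 9.05% in the other inputs. Of 8 glutamatergic neuron markers, 5 were higher in TRAP than in input and none lower, and of the markers of astrocytes and oligodendrocytes all 10 and all 10 were lower, against 19.6% of all genes higher and 22.5% lower. The summed level of the glutamatergic markers ran from 7881 to 9460 CPM in TRAP and from 6043 to 7001 CPM in input, and none of the 8 was at 0 in a group.

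Promoter sequence is shown here for the members that hold a binding motif of CREB or of AP-1, the dimer that FosB forms with Jun proteins, and for Scg5, the member whose WT and KO libraries separated in both TRAP and input. The RefSeq table (GRCm38.p6) held 8 of the 10 members, all but Vgf and Cpe, as windows from 250 bases before the start to 50 bases after it. The cAMP response element TGACGTCA, which reads the same on both strands, was present in 3 of the 8 windows, those of Scg2, Chgb and Pcsk1. It was present in 1.79% of all 32851 windows of the table. The first base of the motif lay 68 bases upstream of the start in Scg2, 72 in Chgb and 78 in Pcsk1. The stretch from 110 to 31 bases upstream is printed for the 3 genes with the element in capitals, at chr1:79440057-79440136 (minus strand), chr2:132781532-132781611 (plus strand) and chr13:75089747-75089826 (plus strand).
Scg2: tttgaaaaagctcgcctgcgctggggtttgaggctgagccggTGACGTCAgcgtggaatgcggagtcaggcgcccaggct
Chgb: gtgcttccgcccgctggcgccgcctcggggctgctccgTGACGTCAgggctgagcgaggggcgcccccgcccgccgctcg
Pcsk1: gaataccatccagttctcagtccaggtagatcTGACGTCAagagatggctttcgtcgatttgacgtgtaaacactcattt

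The AP-1 motif TGANTCA, searched on both strands, was found in 1 of the 8 windows, that of Pcsk1n, 234 bases upstream of the start, and in 7.81% of all windows. The TATA motif TATAAA, on either strand, was found only in that of Chga, and in 13.6% of all. The Chga match lay at −5 bases upstream, so past the start and not before it. The Scg5 window held none of the 3 motifs. A match is a description of letters and shows no binding, and the absence of one concerns these 300-base windows alone. The Pcsk1n stretch from 245 to 196 bases upstream (chrX:7919577-7919626, plus strand) is printed with the AP-1 motif in capitals, and the Scg5 stretch from 110 to 31 bases upstream (chr2:113829122-113829201, minus strand) has no capitals.
Pcsk1n: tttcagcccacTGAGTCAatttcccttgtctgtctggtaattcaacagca
Scg5: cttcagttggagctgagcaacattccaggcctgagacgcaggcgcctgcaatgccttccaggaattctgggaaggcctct

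Levels of different genes were compared as RPKM, which divides the scaled count by the length of the exons. Cpe was the most abundant member in each of the 4 groups and Pcsk1n the second, with means of 318 ± 12.1 and 194 ± 3.36 RPKM in WT TRAP (SD, n = 3). Chgb, a chromogranin, followed in each group, at 142 ± 38.2 RPKM in WT TRAP. The convertases came last in each group: Pcsk2 at 15.9 ± 3.82 and Pcsk1 at 3.16 ± 1.998 RPKM in WT TRAP. Pcsk1 had only 15 to 66 reads per library, so its values are the least precise of the set.

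The members in between did not keep 1 order. In WT TRAP they ran from Scg5 at 72.1 ± 12.8 RPKM through Chga, Vgf and Scg2 to Scg3 at 38.5 ± 9.18 RPKM, and each neighbour in this order overlapped the next. In KO TRAP the order was Chga, Scg2, Scg5, Vgf and Scg3, and again neighbours overlapped. In KO input Scg3 came first of these, at 57.3 ± 2.29 RPKM, without overlap with Chga, which followed at 40.2 ± 0.270 RPKM. Scg5 stood at place 4 of the 10 in WT TRAP and at place 6 in KO TRAP.

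**Figure D1:**
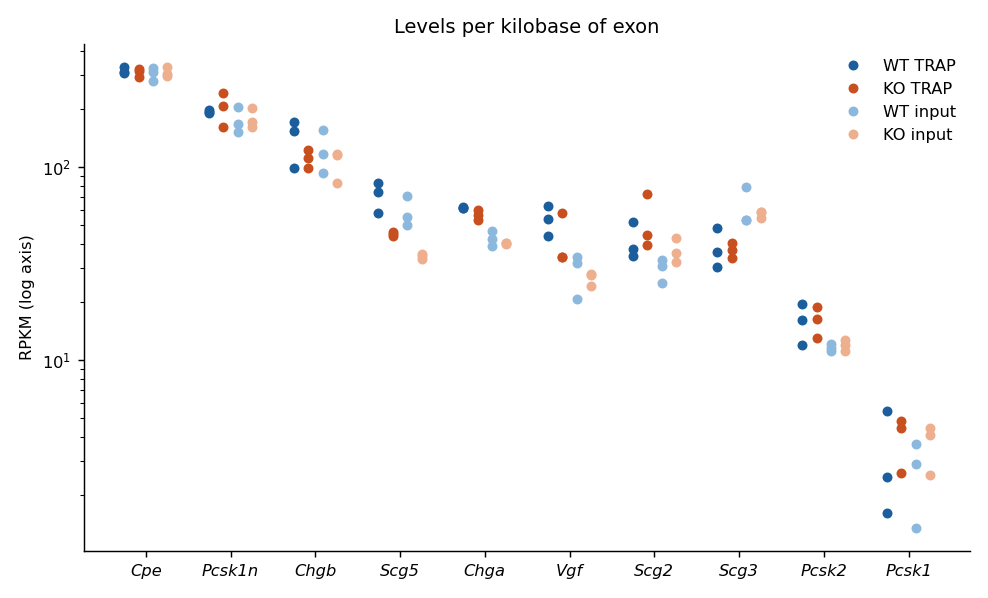
Levels of the 10 genes in RPKM on a log axis, 1 point per library, with genes in the order of their mean in WT TRAP and colours for the 4 groups (n = 3 each). Cpe lies highest and Pcsk1 lowest in every group, and in WT TRAP each of the 5 genes from Scg5 to Scg3 overlaps its neighbour in the order.

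The comparison of KO with WT asks whether loss of Fosb goes with a change in these transcripts. No member passed an adjusted p of 0.05 in either kind of library. Scg5 came nearest: its level in KO was 62.6% of that in WT in TRAP (95% confidence interval 51.4% to 76.2%) and 59.0% in input (47.2% to 73.7%), and KO and WT pools did not overlap in either. Scg2 was higher on average in KO, and Chgb and Vgf lower, but each of these varied between pools of 1 genotype by as much as between genotypes.

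By the quasi-likelihood test of edgeR, adjusted after Benjamini-Hochberg over all genes, 8 of 11727 were called in TRAP (0.0682%) and 4 of 12816 in input (0.0312%). At an unadjusted p under 0.05 stood 1 of the 10 members in TRAP (Scg5), against 6.05% of all genes, and 2 in input (Scg5 and Scg2), against 2.89%. The pools of the genotypes did not overlap for 2 members in TRAP (Scg5 and Chga), against 11.9% of all genes, and for 1 in input (Scg5), against 8.37%. The median log2 fold change of the 10 members was −0.04 in TRAP and −0.02 in input, beside −0.002 and −0.00002 over all genes tested. DESeq2 called Scg5 in each of the 2 comparisons and no other member, among 18 of 11727 genes called in TRAP and 8 of 12816 in input. In exact permutation tests over pools, Scg5 reached p = 0.10 in both kinds of library and Chga in TRAP, which is the smallest p that 3 against 3 allows.

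Scg5 encodes 7B2, the chaperone that PC2 needs on its way to the vesicle and whose carboxyl end inhibits it. In TRAP its level was 118, 91.2 and 131 CPM in WT 1 to 3, against 69.2, 71.0 and 72.3 CPM in KO 2 to 4. In input the WT libraries had 112, 78.7 and 86.3 CPM, and the KO libraries 54.4, 55.9 and 52.5 CPM. The lowest WT pool was above the highest KO pool in both kinds of library, and the KO pools lay close together, with an SD of 1.56 CPM in TRAP and 1.71 CPM in input against 20.1 and 17.4 CPM in WT (n = 3 each).

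The log2 fold change of Scg5 was −0.68 ± 0.14 (SE) in TRAP (edgeR quasi-likelihood test, Benjamini-Hochberg adjusted p = 0.0618) and −0.76 ± 0.15 in input (adjusted p = 0.175). The 2 differences were alike in size: the change in TRAP less that in input was 0.09 ± 0.21 on the log2 scale, with a 95% confidence interval from −0.34 to 0.51 (edgeR quasi-likelihood test of the interaction, unadjusted p = 0.676). The call depends on the setting and on the pools. Without the filter on low counts the adjusted p of the same edgeR test was 0.000857 in TRAP and 0.00324 in input, by DESeq2 it was 0.0226 and 0.0188, and without WT pool 2, the lowest WT pool, it was 0.00343 in TRAP. Without WT pool 3 the change in TRAP was −0.56 and the adjusted p 0.459.

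**Figure D2:**
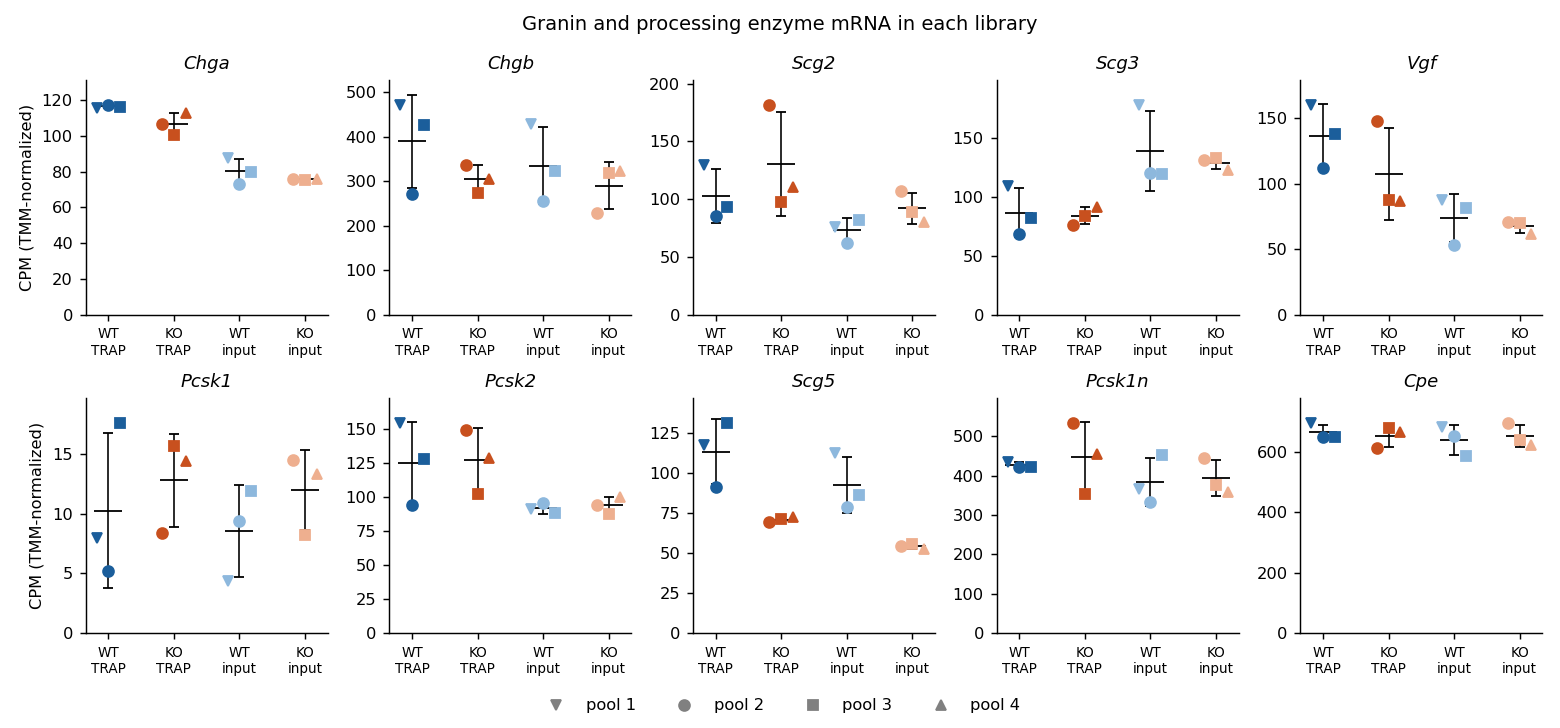
CPM of each gene in each library, with the y axis from 0, symbols for the pool number and black bars for the mean ± SD (n = 3 per group). Scg5 is the gene whose WT and KO pools separate in both TRAP and input, and Scg2 and Vgf show KO pool 2 above the other KO pools in TRAP.

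Pcsk2, the convertase that 7B2 serves, was level between genotypes. In TRAP its WT libraries had 154, 94.1 and 128 CPM and its KO libraries 150, 103 and 129 CPM, ranges that overlap almost entirely. The log2 fold change was 0.01 in TRAP (95% confidence interval −0.38 to 0.41) and 0.03 in input (−0.23 to 0.30), so a change in Pcsk2 of the size seen for Scg5 lies outside both intervals. Per kilobase of exon there were 3.84 to 5.15 Scg5 reads for each Pcsk2 read in WT TRAP and 2.33 to 3.48 in KO TRAP. In input the ratio ran from 4.13 to 6.16 in WT and from 2.65 to 3.22 in KO. The ratio was chosen after the values of Scg5 were seen and rests on them. Pcsk2 exons overlap C630020P19Rik and Gm12360 on the other strand, and the strand setting of the counting is not given in the sources used here, so reads of these genes cannot be told apart.

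The other pair, PC1/3 and its inhibitor proSAAS, showed no member called. In TRAP, Pcsk1 had 8.002, 5.17 and 17.5 CPM in WT against 8.37, 15.6 and 14.4 CPM in KO. Its pools differed over 3-fold within WT, and the log2 fold change of 0.34 ± 0.40 (SE) has a 95% confidence interval from −0.49 to 1.17. It moved to 0.95 without WT pool 3 and to 0.04 without WT pool 2. The WT TRAP libraries had 434, 423 and 421 CPM of Pcsk1n and the KO TRAP libraries 532, 353 and 455 CPM, so that the KO pools lay on both sides of the tight WT pools. Its log2 fold change was 0.07 ± 0.12 in TRAP and 0.04 ± 0.12 in input. Pcsk1n shares exon sequence with Eras on the other strand, with the same limit as for Pcsk2.

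Cpe, the carboxypeptidase, varied least of the members over all 12 libraries, relative to its level. Within single groups, other members could be closer together. The SD was 0.684% of the mean for Chga in WT TRAP, against 3.80% for Cpe, and 2.21% for Scg5 in KO TRAP, against 5.34%. The level of Cpe was 692, 649 and 648 CPM in WT TRAP, 611, 677 and 664 CPM in KO TRAP, and between 584 and 693 CPM in the 6 input libraries. Its log2 fold change between genotypes was −0.03 in TRAP (95% confidence interval −0.20 to 0.14) and 0.03 in input (−0.18 to 0.24), the narrowest intervals of the set.

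Among the granins, Scg2 (secretogranin II, the precursor of secretoneurin) was higher on average in KO by 0.33 on the log2 scale in both kinds of library. The TRAP values were 130, 85.8 and 93.5 CPM for WT and 182, 98.0 and 111 CPM for KO. The input values were 76.0, 62.0 and 81.9 CPM for WT and 107, 88.7 and 80.6 CPM for KO. KO pool 2 was the highest of its genotype in both, and WT and KO pools overlapped. The edgeR quasi-likelihood test gave an unadjusted p of 0.299 in TRAP and 0.0400 in input (adjusted p = 0.927 and 1.00). Without KO pool 2 the log2 fold change in TRAP was 0.02, and without WT pool 1 it was 0.54.

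Vgf, an activity- and neurotrophin-responsive granin-like precursor, had TRAP values of 160, 112 and 138 CPM in WT against 148, 87.5 and 87.0 CPM in KO. Here, too, KO pool 2 was above the other KO pools, within the range of WT. Chgb had 471, 271 and 426 CPM in the WT and 337, 273 and 305 CPM in the KO libraries, and WT pool 2 was the lowest library of all 6. The log2 fold change was −0.36 ± 0.23 (SE) for Vgf and −0.35 ± 0.22 for Chgb in TRAP, and −0.12 ± 0.17 and −0.20 ± 0.19 in input, none past the test. With a pool left out, that of Vgf in TRAP ran from −0.65 (without KO pool 2, edgeR adjusted p = 0.171) to −0.22 (without WT pool 1, KO pool 3 or KO pool 4), and that of Chgb reached −0.19 without WT pool 1. Without WT pool 2, Chgb was called in TRAP, with a log2 fold change of −0.55 (edgeR quasi-likelihood test, adjusted p = 0.0162).

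Chga, the chromogranin used as a general marker of dense-core vesicles, had TRAP values of 116, 117 and 116 CPM in WT against 107, 100.5 and 113 CPM in KO. The groups did not overlap, but the log2 fold change was only −0.13 ± 0.12 (SE) and the unadjusted p of the edgeR quasi-likelihood test, fitted across all genes, was 0.280. Scg3, which binds chromogranin A at the vesicle membrane, ran from 68.4 to 109 CPM in WT TRAP and from 76.4 to 91.1 CPM in KO TRAP, with a log2 fold change of −0.05 ± 0.15. In input its log2 fold change was −0.10 ± 0.15.

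**Figure D3:**
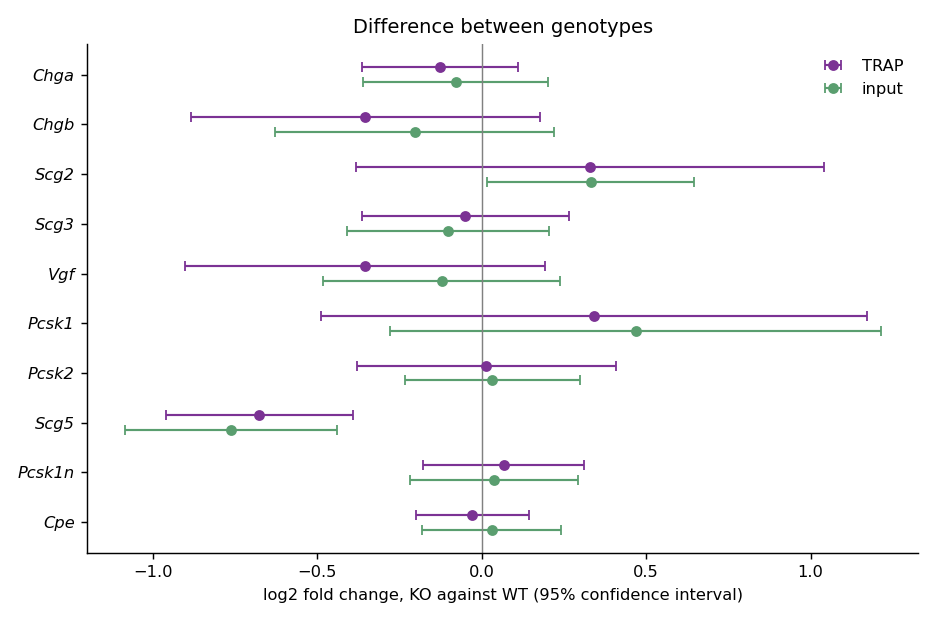
Log2 fold change of each gene from WT to KO, with TRAP and input in separate colours and with 95% confidence intervals from edgeR (3 pools per genotype). The intervals of Scg5 lie below 0 in both kinds of library, from −0.96 to −0.39 in TRAP and from −1.08 to −0.44 in input, and apart from Scg2 in input, the other intervals include 0.

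Over the 12 libraries, the genes whose log2(CPM + 0.5) was most like that of Scg5, among the 13213 others tested, were Fosb (Pearson r = 0.92), Asap1 (0.90), D18Ertd653e (0.89), Nrbf2 (0.88) and Calm3 (0.88). Scg5 was taken for this as the member with the smallest unadjusted p between genotypes in TRAP. Fosb was targeted in the same KO libraries, so a high r between them over all libraries follows in part from this choice. The libraries share genotype, kind of library and pool, and the correlation is given as a description. Fosb, the targeted gene, had a Spearman rho of 0.91 with Scg5, an r of 0.85 without the 2 libraries farthest from its median, and an r of 0.60 for deviations from the group means. Calm3, a calmodulin gene, was lower in KO in TRAP by 0.47 on the log2 scale (edgeR quasi-likelihood test, adjusted p = 0.00284), and for deviations from the group means its r was −0.54. Its likeness therefore lies between groups, while that of D18Ertd653e was also present within them (r = 0.83). Calm3 lies on the chromosome of the floxed gene, at chr7:17500728-17509463, with Fosb at chr7:19888070-19895394. The part of this position in the Calm3 difference was not tested.

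**Figure D4:**
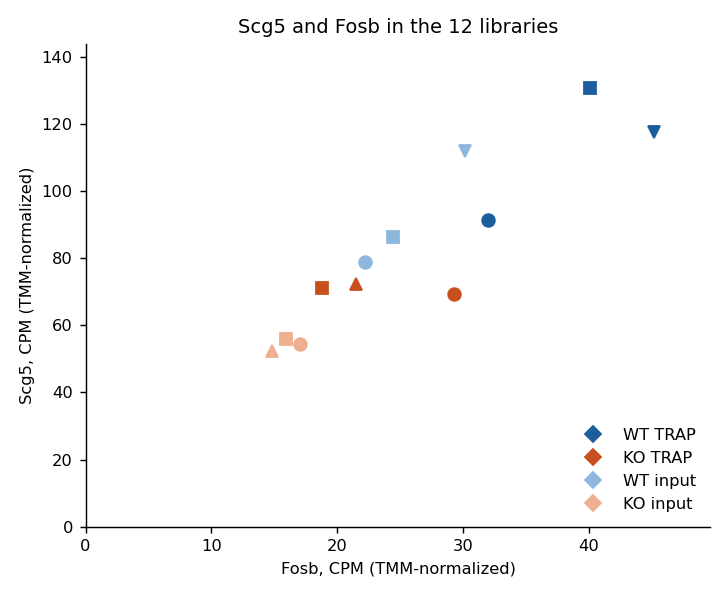
CPM of Scg5 against CPM of Fosb, both axes from 0, with 1 point per library, colours for the groups and symbols for the pool number as in the plot of levels by library. KO input libraries lie lowest on both axes, and the WT TRAP libraries of pools 1 and 3 highest.

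Genes near Scg5 on chromosome 2 were examined after its values were seen. Within 1 Mb on either side, 6 other genes were tested in TRAP and 7 in input, and none had an unadjusted p under 0.05 by the edgeR quasi-likelihood test. Their log2 fold changes ran from 0.17 to 0.38 in TRAP and from −0.40 to 0.68 in input. Arhgap11a, the nearest neighbour, stood at 0.28 in TRAP and 0.68 in input, the opposite sign to Scg5.

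The comparison of TRAP with input asks how these transcripts in tagged neurons relate to those of the whole punch. Over both genotypes, 5 members were higher in TRAP: Vgf at 171% of input, Chga at 143%, Scg2 at 141%, Pcsk2 at 136% and Scg5 at 126%. Scg3 was lower, at 63.8% of input. Chgb, Pcsk1, Pcsk1n and Cpe were not called. In bulk tissue, fewer cells of a type and less RNA per cell cannot be told apart.

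Of all 13214 genes tested over both genotypes (edgeR quasi-likelihood test, Benjamini-Hochberg adjusted), 19.6% were higher and 22.5% lower in TRAP. Within WT alone, 4 members were higher (Chga, Scg2, Vgf and Pcsk2), against 11.8% of genes, and 1 lower (Scg3), against 13.1%. Within KO alone, 4 were higher (Chga, Vgf, Pcsk2 and Scg5), against 13.2% of genes, and Scg3 was lower, against 15.9%. These counts within a genotype rest on single pools: 1 member was called in WT without pool 3 (Vgf) and 3 without pool 1 or without pool 2, and 2 were called in KO without pool 2 or without pool 4. Calls over all genes moved too. In WT they were 3096 of 12426, against 1289 of 12554 without pool 3, 1871 of 12486 without pool 2 and 3243 of 12583 without pool 1. The member counts also rest on the processing. In WT, Pcsk2 lost its call with RLE, total counts, no mitochondrial genes, no robust dispersion and DESeq2 (adjusted p from 0.0506 to 0.0549), and Scg2 in the fit of all 12 libraries (edgeR adjusted p = 0.111). In KO, Scg5 lost its call without a filter, by DESeq2 and in the fit of all 12 libraries (adjusted p from 0.0508 to 0.0611), while Scg2 gained one without a filter (0.49, edgeR adjusted p = 0.000975) and with the replicate block, which pairs both libraries of a pool (0.45, adjusted p = 0.00601). The median log2 difference of the 10 members was 0.25 over both genotypes, beside −0.01 over all genes tested. No member showed an interaction of genotype with the difference between TRAP and input (0 of 10, none at an unadjusted p under 0.05 either), where 1 of all genes was called (0.00757%) and DESeq2 likewise called no member.

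Vgf had the largest difference of the 10 members. Its log2 ratio of TRAP to input within a pool was 0.87, 1.07 and 0.76 in WT 1 to 3 and 1.05, 0.31 and 0.48 in KO 2 to 4. It was higher in TRAP in 6 of 6 pools (log2 fold change 0.77 ± 0.15 SE, edgeR quasi-likelihood test, adjusted p = 0.000771), and an exact test by sign flips of the 6 pools gave 0.03125, the smallest p it allows. In KO, the ratios of pools 3 and 4 were below those of every WT pool, though the difference between genotypes of −0.23 ± 0.31 was not called. A separate list of 18 activity-induced genes had 14 genes higher in TRAP and none lower, against 19.6% and 22.5% of all genes. The part of activity in the Vgf value was not tested.

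Chga was the most even of the members that were higher in TRAP. Its ratios were 0.40, 0.68 and 0.54 in WT and 0.48, 0.42 and 0.57 in KO on the log2 scale, so no pool lay near 0 (log2 fold change 0.52 ± 0.08, edgeR quasi-likelihood test, adjusted p = 1.62e-05). Chgb, the other chromogranin, was not called: its ratios ran from −0.22 in KO pool 3 to 0.56 in KO pool 2 and were above 0 in 4 of 6 pools. The 95% confidence interval of its log2 fold change, from −0.24 to 0.53, includes the Chga value, and the difference between the genes was not tested. Per kilobase of exon, Chgb exceeded Chga by 1.59 to 2.79 times in WT TRAP and by 2.40 to 3.35 times in WT input.

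Scg2 was higher in TRAP in 6 of 6 pools, with log2 ratios from 0.14 in KO pool 3 to 0.77 in WT pool 1. Its log2 fold change was 0.49 ± 0.16 (edgeR quasi-likelihood test, adjusted p = 0.0181), and without WT pool 1, whose input library stood apart, it was 0.42 with an adjusted p of 0.0703. Scg5 was higher in 6 of 6 pools too, from 0.07 in WT pool 1 to 0.60 in WT pool 3 on the log2 scale. Its log2 fold change was 0.34 ± 0.10 (adjusted p = 0.00975 by the same test), and without WT pool 3 it was 0.26 with an adjusted p of 0.0826. Both remained above 0 in each pool, so it is the call and not the direction that rests on single pools.

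Pcsk2 was higher in TRAP in 5 of 6 pools, with WT pool 2 at −0.03 and the rest from 0.23 to 0.75 on the log2 scale. Its log2 fold change was 0.44 ± 0.11 (edgeR quasi-likelihood test, adjusted p = 0.00164), and the sign-flip test gave an exact p of 0.0625. Pcsk1 was not called: 4 pools had higher and 2 lower values in TRAP, from −0.80 in WT pool 2 to 0.89 in KO pool 3, with 95% confidence limits of −0.43 and 0.75 on the mean difference. With 15 to 66 reads per library and a spread between pools of 27.7% to 63.3% of the mean (CV), its difference is the least precise of the set.

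Scg3 was the only member lower in TRAP. Its log2 ratios were −0.70, −0.81 and −0.53 in WT and −0.77, −0.65 and −0.43 in KO, below 0 in 6 of 6 pools. The log2 fold change was −0.65 ± 0.11 (edgeR quasi-likelihood test, adjusted p = 5.02e-05). WT input 1 had the highest Scg3 level of all libraries, 178 CPM, where the other input libraries had 119 to 133 CPM. Without WT pool 1 the comparison over both genotypes still called Scg3.

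Cpe and Pcsk1n, the 2 most abundant members, differed little between TRAP and input. The log2 fold change of Cpe was 0.03 with a 95% confidence interval from −0.10 to 0.15, and that of Pcsk1n was 0.17 with an interval from −0.02 to 0.35. Without KO pool 3, Pcsk1n was called as higher in TRAP (0.24, edgeR quasi-likelihood test, adjusted p = 0.0329).

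**Figure D5:**
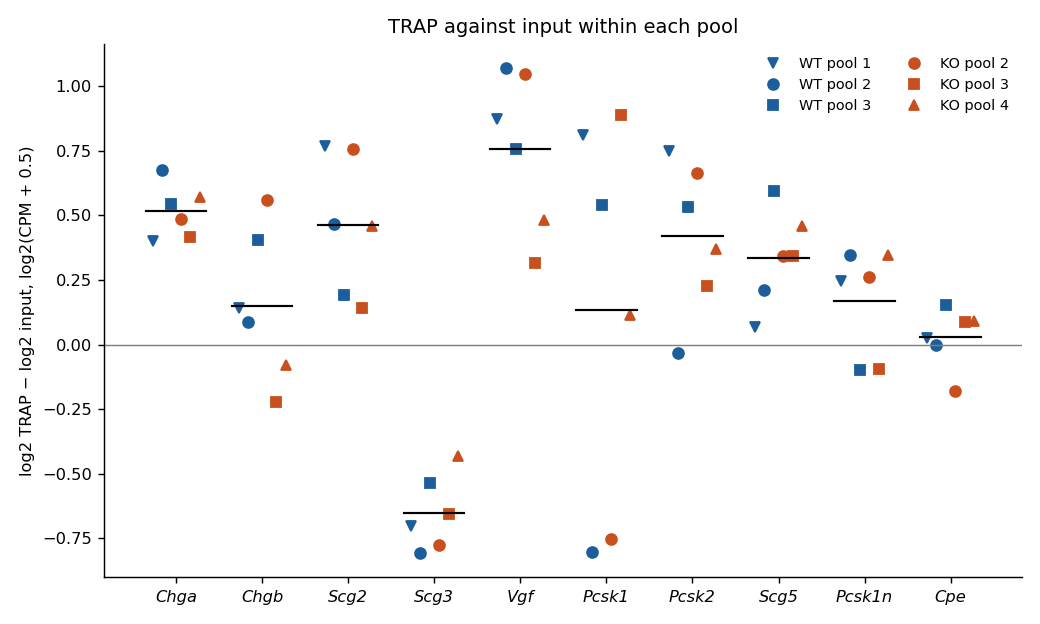
Log2 ratio of TRAP to input within each of the 6 pools, on the log2(CPM + 0.5) scale, with colours for the genotype, symbols for the pool number and a bar for the mean. Vgf, Chga, Scg2 and Scg5 lie above 0 in all 6 pools and Scg3 below 0 in all 6, while Pcsk1 spreads from −0.80 to 0.89.

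The content of other cell types moved with this comparison. The summed level of 10 astrocyte markers was 331 to 428 CPM in the 6 TRAP libraries and 2017 to 2483 CPM in input, and that of 10 oligodendrocyte markers was 157 to 206 CPM in TRAP and 693 to 1123 CPM in input. None of these was at 0 in a group. Of 12 microglial and endothelial markers, 10 were tested and 9 were lower in TRAP, against 22.5% of all genes, with a summed level of 8.23 to 15.6 CPM in TRAP and 84.0 to 150 CPM in input. Cldn5 was at 0 in WT TRAP and P2ry12 and Slco1a4 in KO TRAP. Of 12 interneuron markers 10 were lower in TRAP and none higher, against 22.5% and 19.6% of all genes, with a summed level of 969 to 1143 CPM in input. In TRAP that sum was 439, 312 and 300.2 CPM in WT 1 to 3 and 680 CPM in KO 2, against 208 and 219 CPM in KO 3 and 4, so that KO pool 2, the pool with the highest Scg2 and Vgf of its genotype, stood apart. The part of these cells in the values of Scg3, of the members higher in TRAP or of KO pool 2 was not tested.

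Of 10 markers of dentate gyrus and CA3, 8 were tested, and 2 were higher and 3 lower in TRAP, against 19.6% and 22.5% of all genes. Of 8 markers of CA1 and subiculum 3 were higher and 1 lower, against the same shares. None of the marker genes tested was called between genotypes, against 0.0682% of all genes in TRAP and 0.0312% in input, and the summed astrocyte level was 331 to 428 CPM in WT TRAP and 346 to 370 CPM in KO TRAP.

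The pools also differed among themselves. Scg2 and Vgf were the members most alike in this: over the 12 libraries, their deviations from the group means had an r of 0.89. Both were highest in KO TRAP in pool 2 and lowest in WT TRAP in pool 2. The next were Scg2 with Pcsk1n (0.80), Scg5 with Chgb (0.78) and Scg5 with Scg3 (0.77), and Chgb was also linked to Vgf (0.65). The r of Pcsk1 with Chga was −0.38. Libraries of 1 pool share animals, and the values are given as a description. Within a pool, the deviation in TRAP had the same sign as that in input in 5 of 6 pools for Scg2 and for Vgf, in 4 of 6 for Scg3 and Chga, in 3 of 6 for Scg5, Chgb, Pcsk1, Pcsk2 and Pcsk1n, and in 2 of 6 for Cpe. The r of these deviations ran from −0.09 for Cpe to 0.80 for Scg3.

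The other genes of the route were taken as 3 lists: other maturation enzymes, proteins of dense-core vesicle formation and release, and neuropeptide precursors. None of their genes was called between genotypes by edgeR's quasi-likelihood test, adjusted over all genes, among 11, 20 and 10 genes tested in TRAP and 13, 20 and 17 in input. At an unadjusted p under 0.05 stood 1, 1 and 2 of them in TRAP, against 6.05% of all genes, and 0, 2 and 1 in input, against 2.89%. They were Cpd, Rab2b, Npy and Grp in TRAP and Rab2b, Baiap3 and Cartpt in input. Npy, the precursor of neuropeptide Y and named here after its values were seen, had the same adjusted p as Scg5 in TRAP (0.0618 by the edgeR quasi-likelihood test) with a larger log2 fold change of −1.35 ± 0.26, and −0.09 ± 0.20 in input. The median log2 fold change of the lists was −0.14, 0.02 and 0.02 in TRAP.

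Between TRAP and input over both genotypes, 1 of 13 other maturation enzymes was higher and 1 lower, against 19.6% and 22.5% of all genes. Pcsk4, a convertase known from germ cells, was higher by 0.94 ± 0.35 on the log2 scale (edgeR quasi-likelihood test, adjusted p = 0.0315), at a mean of 19.4 reads per library. Pcsk6, which encodes the convertase PACE4, was lower by −2.45 ± 0.40 on the same scale (adjusted p = 1.47e-05), at 19.7 reads. Furin, Pam (the amidating enzyme) and Cpd (a carboxypeptidase of the trans-Golgi) had log2 differences of −0.05, 0.14 and 0.19 and were not called.

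Of 20 dense-core vesicle genes, 10 were higher and 3 lower in TRAP, against 19.6% and 22.5% of all genes, with a median of 0.27 beside −0.01 for all genes. Resp18, a granule protein related to the Ptprn family, was higher by 0.66 ± 0.13, Ptprn (IA-2, a membrane protein of the granule) by 0.55 ± 0.08 and Rab3a, a vesicle GTPase, by 0.50 ± 0.06 on the log2 scale. Rab27b, another vesicle GTPase, was lower, with a log2 difference of −0.79 ± 0.13 (edgeR quasi-likelihood test, adjusted p = 2.02e-05).

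Of 20 neuropeptide precursors, 18 were tested and 2 were higher and 5 lower in TRAP, against the same 19.6% and 22.5% of all genes, with a median of −0.30 beside −0.01. Grp, the precursor of gastrin-releasing peptide, was higher by 1.48 ± 0.17 on the log2 scale (edgeR quasi-likelihood test, adjusted p = 1.31e-07). Vip, Cort and Tac1, which are known from interneurons, had log2 differences of −4.73 ± 0.57, −1.68 ± 0.41 and −1.02 ± 0.41. They had a mean of only 16.4, 15.0 and 20.4 reads per library, so the sizes of these differences are imprecise.

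The exons of the members were checked for sequence shared with other places of mm9. Of stretches of 75 bases, none of Scg5 (109 stretches) or of the other granins, Pcsk1, Pcsk1n and Cpe had another place at up to 2 mismatches, and 8 of 711 stretches of Pcsk2 had one. In Gencode vM1 on mm9, Scg5 lies at chr2:113616519-113669278 on the minus strand, Scg2 at chr1:79431244-79436665 on the minus strand and Vgf at chr5:137506165-137509221 on the plus strand.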

How the data were processed

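The authors deposited raw counts of reads per gene, 1 file per library, made by TopHat alignment to mm9 and HTSeq-count with Gencode vM1 (the submitters' processing notes also name DESeq2). The deposited counts were not normalized, and the strand setting is not given in the sources used here. All 37310 identifiers were matched to Gencode vM1. Reads outside genes were 20.6% to 27.1% and ambiguous reads 2.11% to 2.56% of unique reads and were left out. A title without the word input was read as TRAP.

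Counts were fitted in R 4.3.3 with edgeR 4.0.16 (default expression filter by group, TMM, robust quasi-likelihood test, Benjamini-Hochberg adjustment over all genes tested). The genotypes were compared within TRAP and within input, TRAP and input were compared in each genotype and over both, and the interaction was fitted in all 12 libraries. An SE is the log2 fold change divided by the square root of F. Single values were compared with two-sided exact permutation tests of log2(CPM + 0.5). At these depths 3 counts were 0.534 to 0.878 CPM before scaling, a floor for counting error only. Promoters came from RefSeq (GRCm38.p6), and exon stretches were aligned with minimap2 2.31. No protein sequence was used here. The steps were tested on simulated data.

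The 10 members and all lists were chosen with earlier results of these data known. Named from the lists were genes called between genotypes and up to 4 per list with the largest called difference between TRAP and input at a mean of 10 counts or more. Furin, Pam, Cpd, Arhgap11a, the other neighbours of Scg5 and the ratios between members were chosen after their values were seen. The 5 genes most like Scg5 were taken by Pearson r.

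The alternatives were RLE, total counts, no filter, a mean of at least 10 counts, no mitochondrial genes, no robust dispersion, DESeq2 1.42.0, a fit of all 12 libraries, the replicate block and each pool left out. TRAP and input libraries with the same number come from 1 pool by the labels, and their deviations from the group means correlated at 0.06 to 0.11. Equal numbers in WT and KO stand for different mice (−0.07 to 0.003).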

Additional observations from a re-analysis of the deposited data

How the results depend on the processing

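Counts of 15 to 66 reads per library limit Pcsk1, and 3 pools per group limit all comparisons. For KO against WT in TRAP, no member was called, but 1 was called without a filter and by DESeq2 (Scg5), and 0 to 2 with a pool left out (Scg5 and Chgb without WT pool 2). Over all genes, the calls in TRAP were 8 of 11727, against 41 of 19273 without a filter, 18 of 11727 by DESeq2 and 19 of 12092 without WT pool 2. In input, 1 member was called without a filter, by DESeq2 and in the fit of all 12 libraries (Scg5), and 0 with a pool left out. Over all genes, the calls in input were 4 of 12816, against 19 of 21580 without a filter, 8 of 12816 by DESeq2 and 7 of 13214 in the fit of all 12 libraries. For TRAP against input, 5 members were called in WT and 1 to 3 with a pool left out, 5 in KO and 2 to 4 with a pool left out, and 6 over both genotypes and 5 to 7 with a pool left out. Over all genes, 3096 of 12426 were called in WT, and from 1289 of 12554 to 3243 of 12583 with a WT pool left out. For TRAP against input and the interaction, the replicate block pairs both libraries made from 1 pool. It called 0 members in the interaction, where Pcsk2 turned to 0.00054, and additionally Scg2 in KO (log2 fold change 0.45, edgeR adjusted p = 0.00601), which was also called without a filter. For KO against WT, the block joins libraries of different mice that share only a number, so its values are no paired result. It called 0 members in TRAP and in input there (Scg5: edgeR adjusted p = 0.715 and 0.282), and Scg3 turned to 0.096 in TRAP and 0.14 in input, and Vgf to 0.099 and Pcsk2 to −0.016 in input. With total counts, Cpe turned to 0.0023 (KO against WT, TRAP) and 0.043 (TRAP against input, KO), and the interactions of Scg2 and Pcsk2 to 0.044 and 0.026. The causes were not tested. Of the single log2 fold changes under an alternative, 739 kept direction and side of the threshold, 26 lost a call, 10 gained one and 45 changed sign, none of the last a called value.

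With each pool left out in turn, these uncalled log2 fold changes ran through 0. For KO against WT in TRAP, the range was −0.19 to 0.16 for Scg3, −0.15 to 0.20 for Pcsk2, −0.074 to 0.22 for Pcsk1n and −0.051 to 0.018 for Cpe. In input it was −0.21 to 0.12 for Scg3, −0.37 to 0.017 for Chgb, −0.31 to 0.017 for Vgf, −0.017 to 0.081 for Pcsk2, −0.056 to 0.17 for Pcsk1n and −0.032 to 0.086 for Cpe. For TRAP against input, it was −0.061 to 0.60 for Pcsk1 in WT, −0.17 to 0.20 for Chgb, −0.29 to 0.46 for Pcsk1 and −0.064 to 0.070 for Cpe in KO, and −0.014 to 0.36 for Pcsk1 over both genotypes. For the interaction it was −0.21 to 0.14 for Scg2, −0.044 to 0.12 for Scg3, −0.076 to 0.25 for Scg5, −0.15 to 0.022 for Chga, −0.51 to 0.24 for Pcsk1, −0.22 to 0.13 for Pcsk2, −0.11 to 0.14 for Pcsk1n and −0.11 to 0.016 for Cpe.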
